A study of Mus musculus with 13 samples.

Results

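Niche cells, as the term is used here, are cells that carried transcripts of the secreted ligands Wnt2 and Wnt9b and of the Wnt amplifier Rspo3 in sections of mouse liver. A cell was counted as one when its Wnt2, Wnt9b and Rspo3 counts summed to 3 or more and its counts of the macrophage gene Adgre1 and of the stellate cell gene Lrat were each below 3. By this rule 2607 of 131221 cells, 1.99%, were niche cells, and they were found in all 13 sections. Their count of ligand transcripts, their number and their leading ligand are therefore descriptions of what the rule chose and carry no test.

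In the liver lobule, blood runs from portal veins to a central vein, and hepatocytes change their enzymes along that path. Endothelial cells of the central vein and the sinusoids beside it are known sources of Wnt2, Wnt9b and Rspo3. Wnt ligands bind Frizzled receptors with Lrp5 or Lrp6 and activate beta-catenin in hepatocytes, while R-spondins bind Lgr receptors and remove the ubiquitin ligases Rnf43 and Znrf3, which would otherwise clear Frizzled from the membrane. Glul, Cyp2e1, Axin2 and Lgr5 are textbook targets of this signal near the central vein.

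The study followed regrowth of the liver of male C57BL/6 mice, given as 2 months of age, after removal of 2/3 of the organ. A panel of 100 genes was read as single transcripts in tissue by Molecular Cartography, a method of repeated fluorescent labelling run by Resolve Biosciences on frozen sections of regrown lobes. There were 2 sections at each of 0 h, 24 h, 48 h and 72 h, 3 sections at 14 d, and 1 each at 3 months and 6 months. All animals had the same strain, sex and operation, no transgene or drug is named, and no label says whether sections of a time came from separate animals, so p-values measure the spread between these sections, which may be technical. The 14 d sections filled a slide of their own, and at 3 months and 6 months the age of the animal cannot be told apart from the time after surgery. The 24 h sections carried no number and shared a slide position, so their counts were summed, which gave 12 libraries for tests.

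The authors' tables hold raw transcript counts per segmented cell. A section held 1678015 to 9619206 counts in 4586 to 15817 cells, and a niche cell held a median of 223.5 to 503 counts, depending on the section. Levels are given as counts per 1000 counts of all panel genes in the same group of cells. They are shares of a small panel, so a large change in an abundant gene moves the shares of the others.

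The label was checked against the markers that the panel holds. Pecam1, an adhesion molecule of endothelial cells, was the only endothelial marker of the panel. In niche cells it was at 18.0 and 17.0 per 1000 in the 0 h sections, at 17.8 and 21.4 at 24 h, at 24.2 and 23.8 at 48 h, at 29.8 and 25.1 at 72 h, at 28.2, 30.2 and 34.6 at 14 d, at 13.7 at 3 months and at 17.4 at 6 months. All other cells together had 1.47 to 5.09 per 1000, so the pooled level of niche cells was above that of other cells in every section. Single cells were not separated by this gene. At least 1 Pecam1 count was present in 92.6% to 100% of niche cells and in 23.6% to 44.3% of the others, and 88 niche cells (3.38%) had none. With a single endothelial gene in the panel the cells keep the name of the rule and are given no cell type here.

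Markers of other cell types were present in niche cells, in some sections above the level of other cells. Lyz2, a lysozyme of macrophages and other myeloid cells, was at 1.64 to 8.71 per 1000 in niche cells and at 2.59 to 9.83 in other cells, and niche cells had more of it in 72 h section 1 (5.16 against 3.63) and in the 14 d sections (6.51, 8.71 and 7.87 against 6.36, 7.29 and 6.74). The leukocyte gene Ptprc was at 0.174 to 1.17 against 0.415 to 1.48, with niche cells higher in 0 h section 2 (1.07 against 0.661) and 72 h section 1 (0.938 against 0.686). The bile duct and progenitor gene Sox9 was at 0 to 0.193 against 0.225 to 0.813, and Cldn7, a claudin of bile duct cells, was at 0 in 7 of 13 sections. Lrat, whose count the rule limits, was at 1.40 to 2.71 per 1000 in niche cells and at 1.25 to 4.91 in other cells. At least 1 Lrat count was in 35.4% to 64.7% of niche cells and in 21.5% to 50.9% of other cells, and the niche share was the higher in each section. Hepatocyte transcripts made up much of what was assigned to niche cells, with Cyp2e1 alone at 171 to 536 per 1000. How much of that signal lay in adjoining cells was not tested, and no step for doublets was applied.

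Wnt2 led the most cells and Wnt9b led the cells with the most ligand. A cell was said to be led by the ligand with its highest count. Wnt2 led 1285 cells (49.3%), Wnt9b 802 (30.8%) and Rspo3 277 (10.6%), and 243 cells (9.32%) had a tie. By section Wnt2 led 29.7% (0 h, section 2) to 58.2% (24 h, section 1) of niche cells, Wnt9b 21.2% to 44.1% in the same 2 sections in reverse, and Rspo3 3.05% (72 h, section 2) to 16.0% (3 months). Wnt2 led more cells than any other ligand in 11 sections, Wnt9b did so in 0 h section 2 and 48 h section 1, and Rspo3 in none.

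By transcripts rather than cells the order of the first 2 ligands was close. Niche cells held 6985 Wnt2, 6772 Wnt9b and 3107 Rspo3 counts, and Wnt9b was the most abundant ligand in 7 sections and Wnt2 in 6. The 8 cells with the highest sums, from 36 to 53 ligand counts, were all led by Wnt9b. The highest of them, in 72 h section 2, held 43 Wnt9b, 5 Wnt2 and 5 Rspo3 counts with 26 Pecam1 counts.

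Wnt9b was also the ligand most concentrated in these cells. Of all Wnt9b counts assigned to cells of a section, 48.0% to 74.4% lay in niche cells, with a median of 60.4%. For Wnt2 that share was 22.5% to 47.1% (median 33.4%) and for Rspo3 21.8% to 44.0% (median 31.1%). The Wnt9b share was above the other 2 in each section.

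Most niche cells carried more than 1 ligand. All 3 were present in 751 cells (28.8%), Wnt2 and Wnt9b without Rspo3 in 688 (26.4%), Wnt2 with Rspo3 in 238 (9.13%) and Wnt9b with Rspo3 in 202 (7.75%). A single ligand was present in 728 cells (27.9%), of which 581 had Wnt2, 91 Wnt9b and 56 Rspo3. Cells with Wnt9b as their only ligand were thus fewer than cells with Wnt2 as theirs, although both ligands had similar totals within niche cells. Over all cells of the sections there were 19750 Wnt2, 11385 Wnt9b and 10288 Rspo3 counts.

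The number of niche cells differed between sections. They made up 1.63% and 0.999% of cells at 0 h, 2.92% and 3.82% at 24 h, 1.92% and 2.44% at 48 h, 1.63% and 1.15% at 72 h, 2.94%, 2.76% and 2.11% at 14 d, 1.47% at 3 months and 0.858% at 6 months. Both 24 h sections and 14 d sections 1 and 2 were the 4 highest, 48 h section 2 lay above 14 d section 3, and 0 h section 2 and the 6 month section were the lowest. The exact 95% binomial interval of the 24 h section 2 share was 3.28% to 4.41% and that of the 6 month section 0.693% to 1.05%, and these intervals cover counting error only.

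Depth differed between sections. The 14 d cells held a median of 470 to 632 counts, the 24 h cells 351 and 356, the 72 h cells 491 and 441, and those of the other sections 231 to 359. Among the 108427 cells with at least 200 counts (3663 to 14788 per section), the share expected after thinning each cell to 200 counts was 0.883% and 0.543% at 0 h, 1.78% and 2.22% at 24 h, 0.985% and 1.62% at 48 h, 1.01% and 0.666% at 72 h, 1.26%, 1.12% and 0.999% at 14 d, 0.880% at 3 months and 0.625% at 6 months. Only the ligand counts were thinned, while the limits on Adgre1 and Lrat were applied to the full counts. Deeper cells could thus still pass those limits more easily and be set aside, so depth was only partly made equal. On this measure the 24 h sections remained the highest, while the 14 d sections lay within the range of 48 h and 72 h. The limits on Adgre1 and Lrat also removed unequal parts of the cells with enough ligand. They took 61.4% in 72 h section 1 and 51.4% in 48 h section 2. At 0 h they took 17.3% and 13.2%, and at 24 h 31.3% and 21.5%. The order of sections is thus that of the cells the rule kept, not of all cells with enough ligand.

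**Figure D1:**
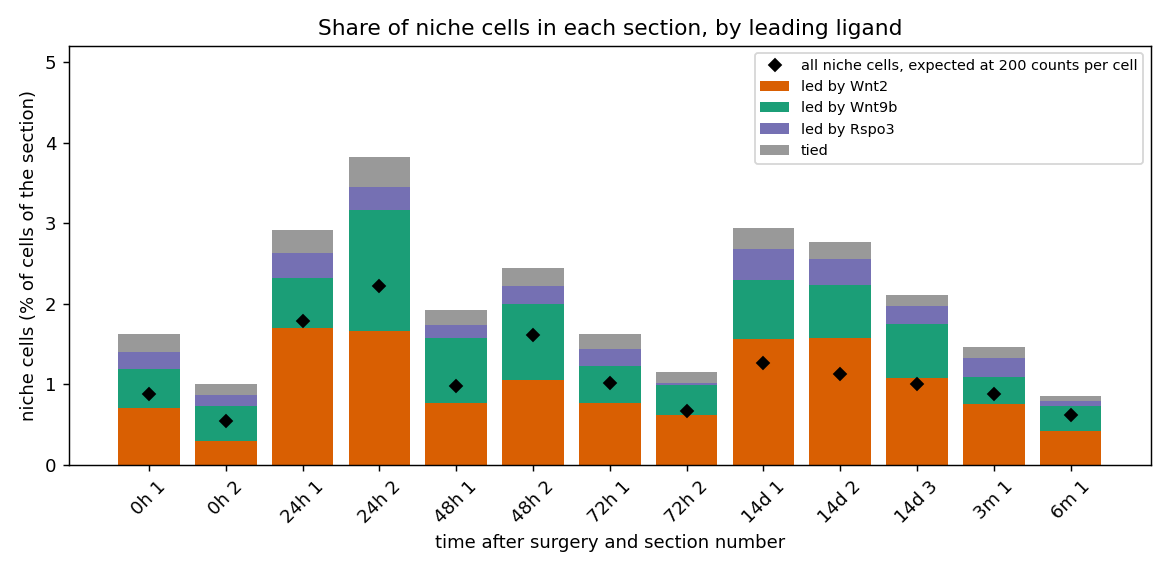
Niche cells as a percentage of all cells of each section (vertical axis), stacked by leading ligand. The 13 sections are in order of time (horizontal axis). Marks give the share expected among cells with at least 200 counts when ligand counts alone are thinned to that depth. The tallest bar is 24 h section 2 at 3.82% and the shortest the 6 month section at 0.858%.

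The threshold cut through a gradient. There were 1932 cells just below it, with a ligand sum of exactly 2, and 854 just inside, with a sum of exactly 3. In 0 h section 1, cells with a sum of 2 had 8.24 Pecam1 per 1000, cells with 3 had 11.2 and cells with 6 or more had 29.4. In 24 h section 2 the levels at 2 and 3 were 12.7 and 12.3, and in 14 d section 3 they were 21.7 and 21.6. Every other section rose from 2 to 3. The limits on Adgre1 and Lrat removed 1367 of 3974 cells with enough ligand, nearly all of them through Lrat (1268).

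Niche cells lay near central veins. The position of a cell was read from its 6 nearest cells, as the mean scaled level of 9 central genes minus that of 6 portal genes, ranked over all cells of the section so that 0 is the most portal and 100 the most central percentile. The median niche cell lay at the 94.5 and 95.1 percentile in the 0 h sections, at 87.6 and 89.8 at 24 h, at 92.6 and 90.5 at 48 h, at 94.0 and 95.4 at 72 h, at 86.0, 87.7 and 88.1 at 14 d, at 94.2 at 3 months and at 95.8 at 6 months. The 14 d and 24 h medians were the lowest and the 6 month median the highest. Over the 12 libraries the median was 93.3, above 50 in 12 of 12 (exact two-sided sign-flip permutation test, p = 0.000488, the smallest that 12 libraries can give, and 0.000977 after Benjamini-Hochberg adjustment over 4 tests).

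Between 41.2% (14 d, section 1) and 76.3% (0 h, section 2) of niche cells were among the most central 10% of cells of their section. Only 151 of the 2607 had a position below 50, and 10 were among the most portal 10%. Cells outside the rule with at least 3 Pecam1 counts, and with Adgre1 and Lrat each below 3, numbered 14430. Their median positions were 36.6 to 50.2, below the niche median in every section. Cells with enough ligand that the Adgre1 and Lrat limits removed are thus not among them. Niche cells also lay near each other, with another niche cell among the 6 nearest of 20.7% to 52.6% of them, against 4.39% to 15.8% of other cells.

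**Figure D2:**
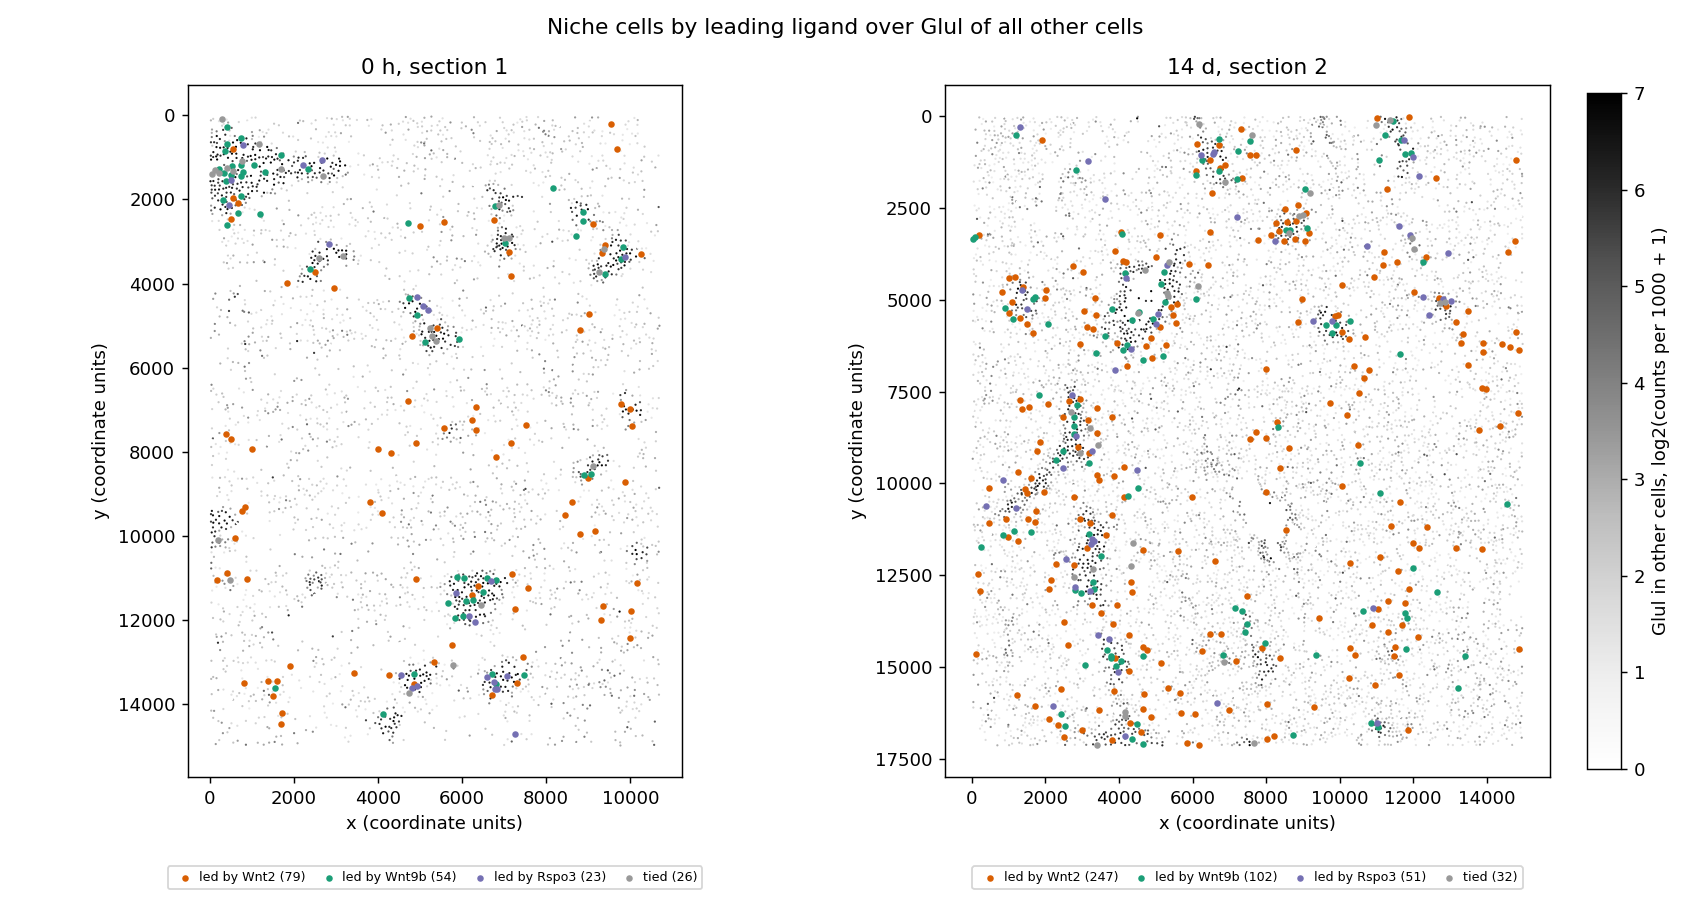
Positions of niche cells, coloured by leading ligand, over all other cells shaded by Glul (log2 of counts per 1000 plus 1), in 0 h section 1 and 14 d section 2; the axes are the deposited x and y coordinates, whose unit length is not given. In 0 h section 1 the 54 cells led by Wnt9b sit mostly on the Glul patches, while many of the 79 led by Wnt2 sit between them.

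The 3 ligands did not share 1 place. Cells led by Wnt2 had median positions from 73.4 (24 h, section 2) to 91.9 (6 months) by section, with a median of 81.5. Cells led by Wnt9b ranged from 91.7 to 98.5 (median 95.8) and cells led by Rspo3 from 92.4 to 98.2 (median 96.8). Rspo3 led only 4 cells in 72 h section 2 and 7 in the 6 month section, which gave the highest Rspo3 value. The Wnt2 cells were the most portal of the 3 in each section.

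The difference between Wnt9b and Wnt2 cells held in every library. It ranged from 4.62 percentile points (72 h, section 1) to 19.4 (48 h, section 1), with a median of 11.3 and the same sign in 12 of 12 (exact two-sided sign-flip permutation test, adjusted p = 0.000977). Cells led by Rspo3 lay 3.78 to 19.1 points above Wnt2 cells, with a median of 13.4, in 10 of the 10 libraries with at least 10 cells of each kind (same exact test, adjusted p = 0.00260). Between Rspo3 and Wnt9b cells the difference ran from -2.42 to 5.04 points and was positive in 4 of 10 libraries (median -0.42, exact test, adjusted p = 0.865), so no difference in position was detected between them.

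**Figure D3:**
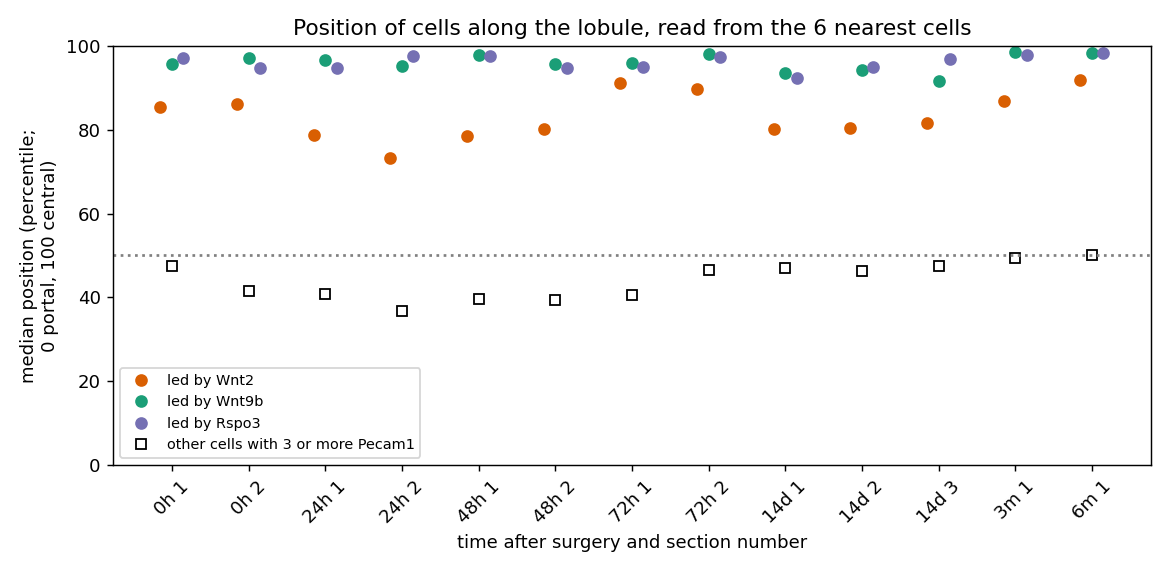
Median position of niche cells by leading ligand in each section (vertical axis, percentile from 0 portal to 100 central; horizontal axis, the 13 sections in order of time), with other cells that hold 3 or more Pecam1 counts as open squares. Wnt9b and Rspo3 points lie at 91.7 or above, Wnt2 points at 73.4 to 91.9 and the squares at 36.6 to 50.2. The squares leave out cells with 3 or more Adgre1 or Lrat counts. The Rspo3 points of 72 h section 2 and of 6 months stand for 4 and 7 cells.

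Single transcripts, read without the cell rule in a step added after the data were seen, also placed Wnt2 farthest from the centre. Each transcript took the position of its nearest cell, in the 12 sections whose transcript lists were used. Wnt9b transcripts had median positions of 93.6 to 98.0, Rspo3 transcripts 85.0 to 92.6 and Wnt2 transcripts 69.6 to 85.5. Wnt2 and Wnt9b did not overlap. Rspo3 transcripts lay below Wnt9b transcripts with no overlap, whereas no difference was detected between cells led by these 2 ligands. Pecam1 transcripts lay at 47.5 to 59.1 and Lrat transcripts at 45.6 to 66.1.

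The cells around each kind of niche cell differed accordingly. Glul, the glutamine synthetase of the last hepatocytes before the central vein, was at 6.49 to 25.9 per 1000 in the nearest cells of Wnt2 cells (median 14.0), at 14.7 to 88.6 around Wnt9b cells (median 53.2) and at 20.7 to 96.2 around Rspo3 cells (median 50.04). Axin2, a feedback inhibitor of Wnt signalling, was at 0.402 to 1.57 around Wnt2 cells and at 0.966 to 2.90 around Wnt9b cells. Arg1, the arginase of the urea cycle, ran the other way, with medians of 5.13 around Wnt2 cells, 1.83 around Wnt9b cells and 0.691 around Rspo3 cells. Levels around Rspo3 cells in 72 h section 2 and the 6 month section come from the surroundings of 4 and 7 cells. All these levels belong to the same gradient that defines position and add no test of their own.

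Genes of niche cells were compared with all other cells of the same library in a model that kept the library as a block. Besides the 5 genes of the rule, 94 genes could be tested by edgeR's quasi-likelihood test with Benjamini-Hochberg adjustment, and a call is an adjusted p under 0.05. Of these, 25 (26.6%) were higher in niche cells and 36 (38.3%) lower. Pecam1 led, with a log2 fold change of 2.93 ± 0.09 (SE), or 7.62-fold, higher in 12 of 12 libraries (adjusted p = 8.97e-15).

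Genes with the next largest changes were central hepatocyte enzymes together with Wnt1 (1.76 ± 0.17) and Fzd4 (1.53 ± 0.14). Glul was at 14.2 to 75.6 per 1000 in niche cells and at 3.27 to 13.3 in other cells, with no overlap (log2 fold change 2.70 ± 0.12). Oat, the ornithine aminotransferase of the same hepatocytes, rose by 2.31 ± 0.13, Gstm2 by 1.66 ± 0.14, Gstm3 by 1.38 ± 0.17 and the calcium-binding Rgn by 1.39 ± 0.11. Of the 9 central genes 7 were higher and 1 lower, with a median log2 fold change of 1.18, against -0.21 over all 94 genes. All 6 portal genes were lower, with a median of -2.03. The lowest of all were the lipid droplet enzyme Hsd17b13 (-3.08 ± 0.26), Sox9 (-2.85 ± 0.29), the glucose-6-phosphatase G6pc and the glutaminase Gls2 (-2.49 ± 0.30).

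Because niche cells sit in central tissue, they were also set against their own neighbours, a comparison added after the data were seen. Neighbours were the 11894 cells that were among the 6 nearest of a niche cell and were no niche cells themselves. Of 83 genes tested, 22 (26.5%) were higher in niche cells and 33 (39.8%) lower (edgeR's quasi-likelihood test with Benjamini-Hochberg adjustment, library as a block). The median over all 83 was -0.09. Of the 9 central genes 2 were higher and 4 lower in this comparison.

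Pecam1 was 8.61-fold higher in niche cells than in neighbours, a log2 fold change of 3.11 ± 0.08. Fzd4, the Frizzled receptor that is well known in endothelium, was at 3.70 and 3.54 per 1000 at 0 h, 3.27 and 2.86 at 24 h, 5.10 and 5.02 at 48 h, 6.82 and 5.90 at 72 h, 5.11, 5.58 and 6.02 at 14 d, 3.39 at 3 months and 3.10 at 6 months in niche cells. Neighbours had 0.444 to 1.70, so the pooled section levels did not overlap, and the log2 fold change was 1.81 ± 0.10. Lrp5, a co-receptor of Wnt, was at 11.8 to 26.4 per 1000 in niche cells and at 4.68 to 15.5 in neighbours, higher in niche cells of every section (1.06 ± 0.06).

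Fzd6 (0.90) and Lrp6 (0.63) rose too, so 4 of the 9 Wnt receptor genes tested were higher and none was called lower, with a list median of 0.47. The other 5 were not called, among them Fzd1 (-0.03), Fzd5 (-0.11) and Fzd7 (-0.32). By plain share of counts Fzd4, Lrp5 and Lrp6 were higher in 13 of 13 sections and Fzd6 in 9. Among the other Wnt ligands, Wnt1 was at 0.263 to 0.815 per 1000 in niche cells and at 0.0307 to 0.169 in neighbours. It was the only one of 11 tested ligands that rose (2.10 ± 0.16), and 2 fell. Gpc1, a cell surface heparan sulfate proteoglycan, rose by 2.22 ± 0.17, and the hypoxia factors Epas1 and Hif1a by 1.21 ± 0.06 and 1.09. Epas1 was highest at 14 d, at 18.1 to 19.0 per 1000 against 4.65 to 10.2 in the other sections.

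Genes of the R-spondin module were mostly lower in niche cells than in their neighbours. Lgr5, an R-spondin receptor, was at 0 to 0.184 per 1000 in niche cells and at 0.091 to 0.458 in neighbours, and it fell by 1.57 ± 0.22 on the log2 scale (adjusted p = 6.94e-08). Niche cells were lower in 12 of 12 libraries after trimmed-mean scaling and in 12 of 13 sections by plain share of counts. Lgr4 had a log2 fold change of -1.13, Rnf43 of -0.84 ± 0.11 and Znrf3 of -0.80 ± 0.10. With these, 4 of the 5 genes tested of the module were lower and none was higher, beside 39.8% lower over all genes. Rnf43 and Znrf3 were lower in 13 of 13 sections by plain share as well. The direction depends on the cells compared, since against other cells with Pecam1 both Lgr5 (0.85, adjusted p = 0.00863) and Rnf43 (0.83, adjusted p = 7.91e-06) were higher in niche cells. Rspo3 itself is a gene of the rule and has no test.

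Other hepatocyte genes went in both directions. Gstm2, Gstm3 and Rgn were called higher in niche cells. By plain share they were higher in 13 of 13 sections, with median log2 ratios of 0.72, 0.68 and 0.53. Others were lower. The bile acid enzyme Cyp7a1 had a log2 fold change of -2.37 ± 0.14, G6pc of -1.83, the amino acid transporter Slc16a10 of -2.98 and Cyp2e1 of -0.45 ± 0.06. Slc16a10 had only 2 counts in niche cells, with 0 in 11 of 13 sections, so the size of its change is uncertain. Glul (0.34 ± 0.06, higher in 11 of 12 libraries) and Oat (0.34) remained higher in niche cells. Axin2 at -0.18 did not pass the test (adjusted p = 0.0894). By plain share Glul and Oat were higher in niche cells in 13 of 13 sections, with median log2 ratios of 0.50 and 0.42. Axin2 was higher in 5 of 13 (median -0.0070). Lgr5 and Cyp7a1 lay farther from the level of the adjoining cells, with medians of -1.35 and -2.33.

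The neighbours were then set against the 116720 distant cells of the same libraries. Neither group was chosen by its own counts beyond being outside the rule, but position and distance are tied, and what is shown is the tissue around niche cells. Of 93 genes tested, 30 (32.3%) were higher in neighbours and 45 (48.4%) lower (edgeR's quasi-likelihood test with Benjamini-Hochberg adjustment, library as a block). With scaling by total counts in place of the trimmed mean the split was 19 higher and 54 lower, the median gene moved by -0.35 on the log2 scale, and the sign of 9 genes flipped (C6, Cpt2, Fzd7, Fzd8, Fzd10, Lrp5, Wnt8a, Wnt10b and Wnt11).

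Most Wnt target genes were higher around niche cells. Of 11 targets tested 10 were higher and 1, the cyclin Ccnd1, was lower, and the median log2 fold change was 1.88 against -0.20 over all 93 genes. Znrf3 (0.50 ± 0.06) was not called with total-count scaling (0.14), and its plain ratio of neighbours to distant cells was below 1 in 0 h section 1 (0.895), 14 d section 2 (0.970) and the 3 month section (0.921). All 9 central genes were higher (median 1.97) and all 6 portal genes lower (median -1.27). Since the lists for position and for targets overlap and were known to be zonated, these counts describe the place.

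Glul was at 29.2 and 46.3 per 1000 in neighbours at 0 h, 27.1 and 49.0 at 24 h, 25.5 and 46.3 at 48 h, 27.9 and 27.6 at 72 h, 15.8, 10.3 and 10.03 at 14 d, 30.3 at 3 months and 33.2 at 6 months. Distant cells had 2.24 to 6.32, with no overlap, and the fitted change was 9.44-fold (log2 3.24 ± 0.17). Neighbours at 14 d were the lowest. The T-box factor Tbx3 rose by 2.22 ± 0.09, Lgr5 by 2.22 ± 0.15, Axin2 by 1.97 ± 0.19, Cyp2e1 by 1.88 ± 0.07, Cyp7a1 by 1.48 ± 0.11, Lect2, a hepatocyte-secreted Wnt target, by 1.5 ± 0.11, Cyp1a2 by 1.45 ± 0.12 and Rnf43 by 1.36 ± 0.08.

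Lgr5 was scarce but separated well. Neighbours had 0.091 and 0.111 per 1000 at 0 h, 0.458 and 0.351 at 24 h, 0.317 and 0.431 at 48 h, 0.224 and 0.208 at 72 h, 0.162, 0.134 and 0.137 at 14 d, 0.317 at 3 months and 0.352 at 6 months. Distant cells had 0.0287 to 0.142. Neighbours were higher within every section, by 2.38 to 6.07 times. The neighbours at 0 h were the lowest of all, and those of 24 h section 1 and 48 h section 2 the highest.

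The 45 genes lower around niche cells included the 6 portal genes, and also Epas1, Gpc1, Fzd4, Wnt1 and Ptprc. Niche cells, which held more Epas1, Gpc1, Fzd4 and Wnt1 than their neighbours, are left out of the neighbours by definition. How far leaving them out lowered these genes in the central tissue that remained was not tested. Hsd17b13 had a log2 fold change of -2.54 ± 0.24, Gls2 of -2.36 ± 0.27, Sox9 of -2.28 ± 0.24, the ligand Wnt10a of -2.03 ± 0.19, Wnt2b of -1.40 ± 0.28, the gluconeogenic Pck1 of -1.29 and Arg1 of -1.26 ± 0.14. Ccnd1 was lower by a smaller step (-0.58 ± 0.11). Pecam1 was not called (-0.07, edgeR adjusted p = 0.446). Its plain ratio of neighbours to distant cells was below 1 in every section, at 0.568 to 0.907, and it was called at -0.43 with total-count scaling. With niche cells of a ligand sum of 5 or more it was called at 0.33, but cells with lower sums can then count as neighbours. Its fitted direction thus depends on the scaling and on the ligand sum.

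**Figure D4:**
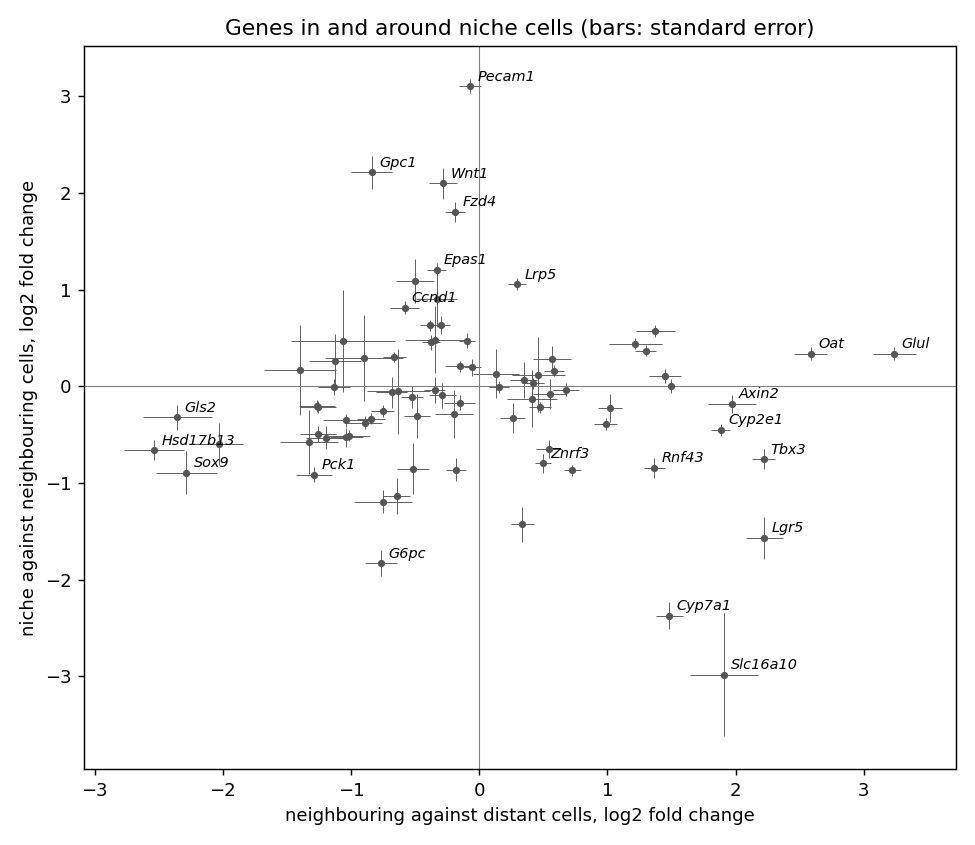
Log2 fold change of each gene in neighbouring against distant cells (horizontal axis) and in niche against neighbouring cells (vertical axis), with standard errors; the neighbours enter both axes, so the 2 axes are not independent. Pecam1 stands at -0.07 and 3.11, Glul at 3.24 and 0.34, and Lgr5 at 2.22 and -1.57.

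Levels of several central genes fell with distance from the nearest niche cell, at a pace that differed by gene. Distance and lobule position are tied, so these profiles describe the place. The median distance between nearest cells was 85.4 to 98.7 coordinate units. The median Glul level over sections was 36.1 per 1000 in cells within 100 units of a niche cell, 14.99 at 200 to 300 units and 2.52 at 400 to 500. Cyp2e1 fell more slowly over the same bins, from 380 to 303 and 179. Axin2 went from 1.34 to 0.877 and 0.444, and Lgr5 from 0.223 to 0.162 and 0.0743. Znrf3 changed little, from 1.26 to 1.17 and 1.08, and was at 1.52 from 1200 units on. Arg1 and Gls2 were lowest beside niche cells, at 3.62 and 0.222 per 1000.

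**Figure D5:**
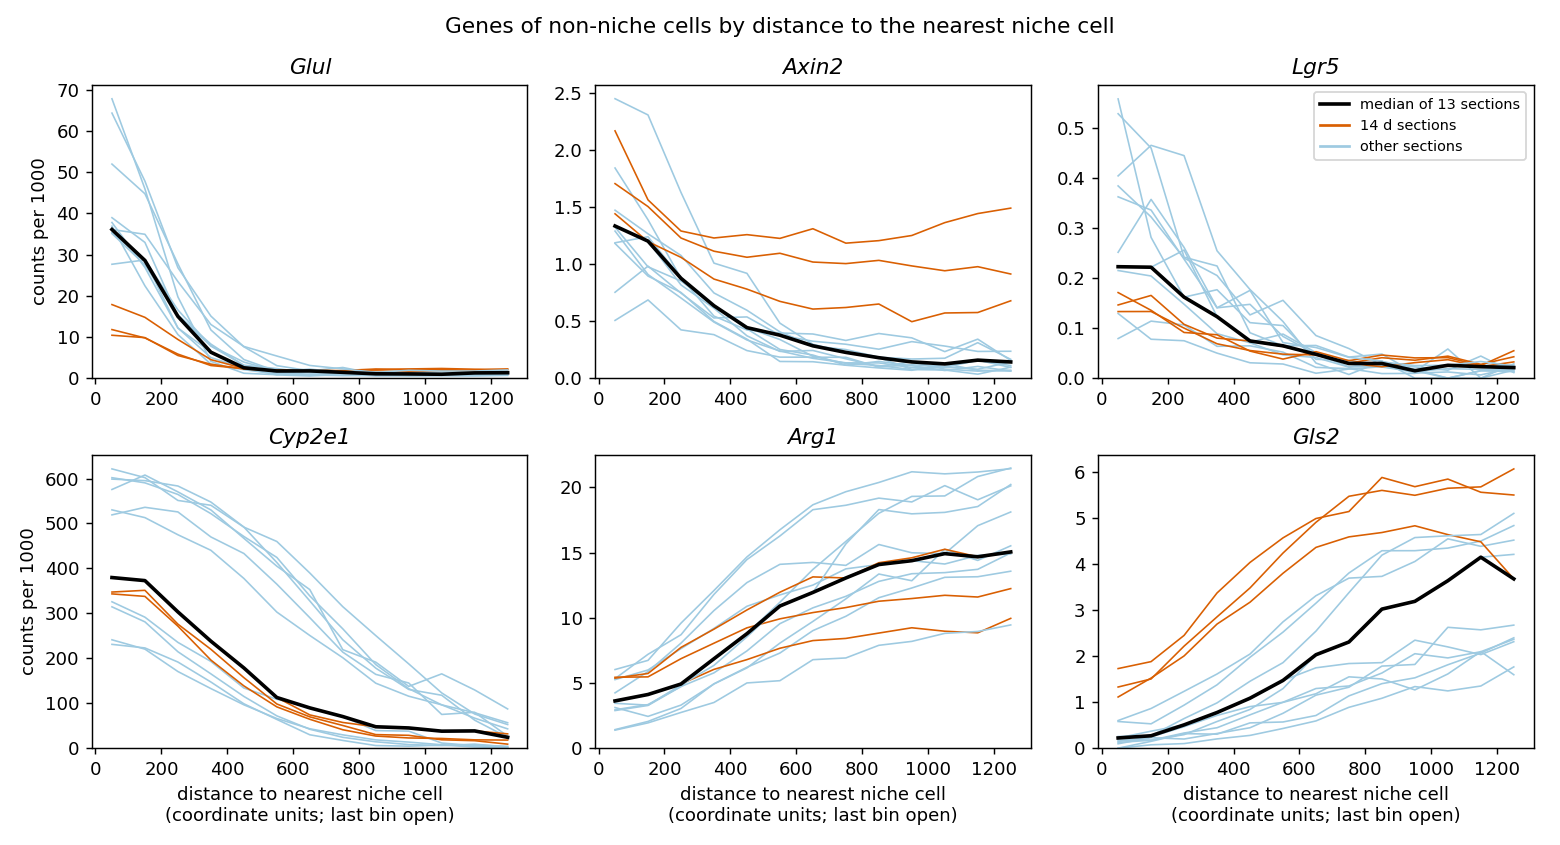
Counts per 1000 of 6 genes in cells outside the rule (vertical axes) against distance to the nearest niche cell in bins of 100 coordinate units (horizontal axes); thin lines are the 13 sections, with 14 d in orange, and the thick line is the median. The medians of Glul, Axin2, Lgr5 and Cyp2e1 fall with distance while those of Arg1 and Gls2 rise. The 14 d lines of Axin2 lie above the median from 200 units on.

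Members of the called set were also looked up in the mouse promoter windows of RefSeq (build GRCm38.p6), because the Tcf and Lef factors that carry the Wnt signal bind a short core. The core CTTTGA was searched on both strands (TCAAAG on the other) in the 250 bases before the transcription start. It was present in 4 of the 22 genes with a window among the 30 that rose around niche cells (18.2%), namely Cyp1a2, Cyp2e1, Gstm3 and Lect2. Of the 31 genes with a window among the 45 that were lower, 6 held it (19.4%). Of all 27025 genes with a window 15.8% held it, and of all 32851 windows 13.8%. The share was therefore no higher in the genes that rose than in those that were lower. The windows of 3 central genes with a match are shown 5′ to 3′ on the strand of the gene, with the core in capitals, to give the place of the match. They are at chr7:140763569-140763818 on the plus strand for Cyp2e1, at chr13:56548539-56548788 on the minus strand for Lect2 and at chr9:57683656-57683905 on the minus strand for Cyp1a2.
Cyp2e1: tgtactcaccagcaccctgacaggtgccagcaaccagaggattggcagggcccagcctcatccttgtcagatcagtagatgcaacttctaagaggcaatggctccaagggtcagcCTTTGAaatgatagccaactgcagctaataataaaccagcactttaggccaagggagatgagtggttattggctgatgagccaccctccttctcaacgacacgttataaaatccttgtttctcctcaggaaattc
Lect2: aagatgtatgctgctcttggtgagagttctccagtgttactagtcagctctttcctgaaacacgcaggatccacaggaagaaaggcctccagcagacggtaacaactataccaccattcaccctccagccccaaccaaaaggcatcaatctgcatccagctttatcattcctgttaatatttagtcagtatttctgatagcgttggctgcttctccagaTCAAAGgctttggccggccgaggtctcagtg
Cyp1a2: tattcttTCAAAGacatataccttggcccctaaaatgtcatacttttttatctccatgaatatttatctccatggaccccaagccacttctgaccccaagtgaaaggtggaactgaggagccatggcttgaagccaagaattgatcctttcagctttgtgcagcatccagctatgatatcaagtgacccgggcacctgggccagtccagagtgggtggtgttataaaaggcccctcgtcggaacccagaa
The core lay 135 bases before the start in Cyp2e1, 31 in Lect2 and 243 in Cyp1a2. A match of these letters is a description and not a bound site.

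Within niche cells, many genes changed over the 7 times. Of 75 genes tested, 44 (58.7%) had an adjusted p under 0.05 in an F test of any difference between times (edgeR's quasi-likelihood test with Benjamini-Hochberg adjustment, 12 libraries). Fold changes are against 0 h. Time and slide overlap, since all 14 d sections lay on 1 slide, and Lyz2 and Ptprc were at their highest in niche cells of the same sections, at 6.51 to 8.71 and 1.11 to 1.17 per 1000. Their part in the 14 d values was not tested. With slide 1 alone 9 genes passed, and without 14 d section 2 the count was 27. The median gene moved by 0.55, 0.73 and 0.65 at 24 h, 48 h and 14 d with total-count scaling, so changes of that size depend on the scaling.

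Ccnd1, the cyclin of entry into the cell cycle, was at 1.99 and 1.64 per 1000 in niche cells at 0 h, 11.2 and 7.20 at 24 h, 14.4 and 13.1 at 48 h, 8.88 and 7.77 at 72 h, 5.95, 5.90 and 6.22 at 14 d, 3.58 at 3 months and 3.26 at 6 months. Every later section was above both 0 h sections, and the 48 h sections were the highest. The log2 fold change was 1.79 ± 0.22 at 24 h, 2.19 ± 0.19 at 48 h, 1.89 ± 0.19 at 72 h and 1.07 ± 0.18 at 14 d (adjusted p over all times 9.91e-05). Neighbours carried less of it than niche cells in every section, by 1.54 to 3.16 times (log2 0.82 ± 0.07, higher in niche cells in 12 of 12 libraries). All other cells together held 1.19 to 11.7 per 1000, also highest in 48 h section 2. Against them Ccnd1 was not called (log2 0.17, edgeR adjusted p = 0.202), though 14 alternative settings, the neighbours among them, called it higher. Against other cells with Pecam1 it was lower in niche cells (-0.39, edgeR adjusted p = 0.00196).

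The inhibitors of the R-spondin module moved in both directions. Znrf3 was at 0.865 and 0.625 per 1000 at 0 h, 2.08 and 2.03 at 24 h, 1.92 and 2.17 at 48 h, 1.05 and 0.794 at 72 h, 0.329, 0.294 and 0.312 at 14 d, 1.08 at 3 months and 0.993 at 6 months. The 24 h and 48 h sections lay above all others and the 14 d sections below. The fitted changes were 0.90 ± 0.30 at 24 h and -1.91 ± 0.25 at 14 d (adjusted p = 9.91e-05). Rnf43 was also lowest at 14 d in the fit (-1.01 ± 0.29), although 0 h section 2, at 0.781 per 1000, was below the 14 d sections. In the test of niche against other cells over time Znrf3 was not called (adjusted p = 0.617), but 5 alternative settings, DESeq2 and 4 with a 0 h or 48 h section left out, called it (adjusted p from 0.00443 to 0.0259).

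Central enzymes in niche cells were lower at some times. Glul was at 51.5 and 75.6 per 1000 at 0 h and at 20.9, 18.1 and 14.2 at 14 d (log2 -2.52 ± 0.29), and the sections of the other times ran from 35.9 to 69.2. Cyp2e1 was at 503 and 498 at 0 h, at 171 to 235 at 24 h and 48 h and at 278 to 305 at 14 d (-1.88 ± 0.23, -1.96 ± 0.18 and -1.46 ± 0.16). Gstm3 was at 6.92 and 10.4 at 0 h and at 34.3 to 83.5 at 24 h and 48 h (2.47 ± 0.27 at 48 h). These changes were not confined to niche cells. In all other cells together Glul was lowest in 14 d section 3 (3.27 per 1000) and Cyp2e1 in 48 h section 2 (77.1). Gstm3 was highest there in 48 h section 2 (46.3). Each of these genes was also called in the test of niche against other cells over time. All 3 Mu-class glutathione transferases, 6 of 9 central genes, 5 of 6 portal genes and 8 of 11 Wnt targets were called for time, beside 58.7% of all genes.

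Pecam1 did not pass the test over time (adjusted p = 0.0580), and 9 alternative settings called it. Fzd4 was called (adjusted p = 0.0207), with -0.80 ± 0.25 at 24 h and 0.51 ± 0.20 at 72 h, and Epas1 with 0.81 ± 0.16 at 14 d. Gls2, a portal enzyme at 0.0752 and 0.104 per 1000 at 0 h, reached 1.26 to 1.74 at 14 d (3.44 ± 0.48). Its 0 h levels rest on very few counts, so the size of this change is uncertain. The portal Ass1 had 2.21 ± 0.35 and the heme enzyme Cpox -1.71 ± 0.22 at 14 d.

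The contrast between neighbours and distant cells also varied with time. Of 93 genes, 37 (39.8%) had a difference between times (edgeR's quasi-likelihood test of the interaction with Benjamini-Hochberg adjustment). Axin2 was at 0.615 to 2.20 per 1000 in neighbours over all sections, and at 1.25, 1.53 and 1.64 at 14 d. In distant cells it was at 0.751, 1.07 and 1.30 at 14 d and at 0.172 to 0.516 in every other section. The ratio of the 2 was 1.66, 1.43 and 1.26 in the 14 d sections and 2.70 to 5.50 elsewhere, and its log2 difference from 0 h was -1.51 ± 0.21 at 14 d (adjusted p = 1.44e-07). The smaller ratio at 14 d thus came with higher Axin2 far from niche cells, not with a neighbour level below the range of the other times.

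Glul took another course. Its ratio was 4.33, 3.63 and 4.09 at 14 d and 7.33 to 11.4 elsewhere, and the difference from 0 h was -1.27 ± 0.21 (adjusted p = 1.8e-05). Here the neighbour level was lower at 14 d, at 10.03 to 15.8 per 1000, while distant cells, at 2.45 to 3.64, lay within the range of the other times. Cyp2e1 was not called (adjusted p = 0.580), although 4 alternative settings called it (adjusted p from 0.00801 to 0.0345), with neighbours between 219 and 603 and distant cells between 57.3 and 310 per 1000. Lgr5 had its largest difference at 6 months (1.09 ± 0.38), a time with 1 section.

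In the matching test of niche against other cells over time 43 of 94 genes (45.7%) were called. All 6 portal genes were among them, with positive differences at 14 d for Gls2 (3.18 ± 0.45), Hsd17b13, Ass1, Arg1 and Cps1. The Gls2 difference rests on very few niche cell counts at 0 h. Lyz2 was called with 1.31 at 14 d, and lost the call with a ligand sum of 2 or more (0.53, adjusted p = 0.245). Lgr5 was not (adjusted p = 0.927). Pecam1 was not called either (adjusted p = 0.181), but 11 alternative settings called it (adjusted p by edgeR or DESeq2 from 1.9e-09 to 0.0278), with values of -1.04 to -0.40 at 3 months. The 14 d niche cells also had low median positions, from 86.0 to 88.1, and the part of position in these differences was not tested.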

How the data were processed

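Transcript counts per gene and cell of 13 liver sections were taken as deposited. They are raw counts made by the company, with no normalization, per the labels and the file contents; the decoding, the outlining of cells and the unit of the coordinates are not given in the sources used here. Genes without a line in a section's table (5 genes) were taken as 0. Members, gene lists and tests were chosen with earlier results of these data known.

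Counts were summed over niche cells, other cells, neighbours (among the 6 nearest of a niche cell) and distant cells of each library, with the 24 h sections summed. Genes that reached 10 counts in 2 libraries or more were fitted with edgeR 4.0.16 (R 4.3.3; quasi-likelihood test, robust, trimmed-mean scaling), with p-values adjusted by Benjamini-Hochberg over all tested genes except the 5 of the rule and a threshold of 0.05; standard errors are the log2 fold change divided by the root of F. The procedure was tested on simulated data. Positions were compared over libraries by exact two-sided sign-flip permutation tests (SciPy 1.17.1). Libraries needed 20 niche cells, and 10 per ligand for pairs.

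Genes were named by rule: the 10 highest and 10 lowest called changes with 1 direction in every library, the 10 smallest adjusted p-values for tests over time, and Wnt2, Wnt9b, Rspo3, Pecam1, Lgr5, Axin2, Rnf43, Znrf3, Glul, Cyp2e1 and Ccnd1; Fzd4, Fzd6, Lrp5, Lrp6, Lgr4, Gpc1, Epas1, Hif1a, Slc16a10 and the other genes of the added comparison with neighbours were chosen after their values were seen. Transcript lists of 12 sections, in coordinate units, gave the positions of single transcripts, and sections shared at most 2 cell coordinates. Same-numbered sections of different times did not deviate together (r from -0.252 to 0.179 over 12 pairs), so the numbers were not used as pairs. Total counts per section ran from 1678015 to 9619206. Alternatives were other ligand sums (2 and 5), other scalings, DESeq2 1.42.0, 3 or 12 nearest cells, other comparison cells, blocks, and each section left out in turn.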

Additional observations from a re-analysis of the deposited data

Results flagged for a closer look

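These results were picked because the difference between cell classes changed with time by the interaction test of edgeR (Benjamini-Hochberg adjusted over all genes tested). Each value is the log2 difference from 0 h of the contrast at the time where it was largest, and no cause was tested. The 14 d sections share a slide and had the highest Lyz2 and Ptprc levels in niche cells.

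For niche against other cells, portal and secreted hepatocyte genes had positive differences at 14 d. They were Cps1 (1.80, adjusted p = 1.02e-26), Igfbp2 (1.41), Hsd17b13 (2.84), Vtn (1.65), Arg1 (1.85), Gls2 (3.18) and Ass1 (1.92), with the macrophage gene Lyz2 at 1.31 (0.53 and not called with a ligand sum of 2 or more). The Gls2 value rests on very few niche cell counts at 0 h. Pck1 was largest at 24 h (1.37). Gstm3 had a negative difference at 72 h (-1.66, adjusted p = 1.01e-14).

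For neighbouring against distant cells the differences at 14 d were 2.33 for Hsd17b13 (adjusted p = 8.59e-12), 1.05 for Elovl2, 1.35 for Igfbp2, 2.56 for Gls2, 0.85 for Apom, 1.38 for Cps1 and 0.71 for Ccnd1. Negative values at 14 d were those of Gstm2 (-1.48, adjusted p = 3.99e-08) and Axin2 (-1.51, adjusted p = 1.44e-07). Lyz2 was largest at 72 h (0.77).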

How the results depend on the processing

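Niche cells lay centrally, and Wnt9b and Rspo3 cells lay more centrally than Wnt2 cells, under every alternative that gave a test (93.3 main, 92.6 to 94.0 with a section left out; 10.9 to 11.7 for Wnt9b minus Wnt2; 12.2 to 14.5 for Rspo3 minus Wnt2). Single Wnt2 transcripts had a median position of 79.1. Rspo3 minus Wnt9b (-0.68 to -0.26 with a section left out) turned to 0.74 at a ligand sum of 5 or more, 0.065 with 12 nearest cells and 0.22 with the score without Wnt targets, and was never called. Without the library as a replicate block 16 genes were higher in niche cells and 20 lower in neighbours; with total-count scaling 19 were higher in neighbours. With a section left out, genes higher and lower in niche cells numbered 23 to 28 and 30 to 36, those in neighbours 28 to 32 and 36 to 43, those changed over time 27 (without 14 d section 2) to 60, and the interactions 31 to 56 for niche cells and 26 to 51 for neighbours. Over time 24 genes were called with the section number as a replicate block (41 for the same times without it) and 9 with slide 1 alone, and same-numbered sections did not deviate together. The cause of these shifts was not tested.

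Of the values of named genes under alternatives, 2155 kept direction and call, 53 became called, 36 lost the call and 24 changed sign. Against neighbours in place of all other cells, Axin2 became -0.18, Rnf43 -0.84, Cyp2e1 -0.45 and Lgr5 -1.57. Lgr5 in niche against other cells, not called in the reported fit (0.02), was called at 0.85 against cells with Pecam1 (adjusted p = 0.00863). It became -0.018 at a sum of 2, -0.029 at 5, -0.026 with total counts, -0.12 among cells of middle depth and -0.030 without the block, and ran from -0.053 to 0.23 with 1 section left out (-0.0064, -0.034 and -0.042 among them). Ccnd1 there became -0.081 at a sum of 5 and -0.39 against cells with Pecam1. Pecam1 in neighbours became 0.33 at a sum of 5, 0.079 with 12 nearest cells, -0.10 to 0.039 with 1 section left out (0.012, 0.030 and 0.028 among them), and 0.0067 for its difference over time. Over time, the 6 month difference of Lgr5 between niche and other cells ran from -2.01 to 0.15 with 1 section left out, and that of Ccnd1 became 0.15 at a sum of 5. The Rnf43 difference between times in neighbours lost its call in 12 settings (adjusted p by edgeR or DESeq2 0.0632 to 0.557). Depth limits scarce genes: Lgr5 had 0 counts in niche cells of 72 h section 1.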

Other observations

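Cells with enough ligand that the limits on Adgre1 and Lrat set aside also lay centrally, with median positions of 81.6 (14 d, section 2) to 94.7 (72 h, section 2) by section. They differed from niche cells in their mix of ligands. Rspo3 made up 19.3% (72 h, section 2) to 55.7% (0 h, section 1) of their ligand counts, against 13.2% to 25.6% in niche cells, and it was the higher share in each of the 13 sections. They made up 10.7% of the cells with a ligand sum of 3 or more in the 6 month section and 61.4% in 72 h section 1, with a median of 31.3% over sections. Since 1268 of the 1367 had at least 3 counts of Lrat, a gene of stellate cells, which are known to express Rspo3 near the central vein, the rule leaves out part of the Rspo3 signal. Whether these were stellate cells or 2 adjoining cells outlined as 1 was not tested.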
